A study of Mus musculus with 378 samples.

Results

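Tumour-infiltrating CD4 T cells with Gzmb RNA are described here beside those without it. They come from B16F10 melanomas, a transplantable mouse melanoma line, and were profiled as single cells with Smart-seq2, a plate method that reads full-length cDNA of each cell. FPKM, the deposited unit, is the number of fragments per kilobase of transcript and per fixed number of sequenced fragments. Of 94 KO and 94 WT single-cell libraries whose titles hold CD4, 78 KO and 79 WT cells had at least 1000 genes above 0 FPKM and were kept. They were selected on their own Gzmb value, above 0 FPKM for 55 cells (33 KO and 22 WT) and equal to 0 for 45 KO and 57 WT cells. The whole series holds 374 single-cell libraries, CD8 cells included, and 4 population libraries that are not used here.

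Granzyme B, the product of Gzmb, is a serine protease of cytotoxic granules that enters target cells with the help of perforin and starts their death. It is best known in CD8 T cells and natural killer cells. Regulatory T cells, the CD4 cells that depend on the transcription factor Foxp3 and restrain immune responses, can also make it, and in tumours they are known to carry many activation receptors. Naive and central memory T cells keep the transcription factor Tcf7 and the homing receptors Ccr7 and S1pr1, which activated cells lose.

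The mice were C57BL/6 and carried B16F10 tumours. The KO group is labelled IL27raKO, a deletion of the gene for the IL-27 receptor alpha chain. The WT group is labelled wild type. Both groups were tumour-bearing and neither is labelled with any other agent. The treatment text names CD8+ T cells only, so the CD4 identity rests on the sample titles. No label gives an animal, an age or a sort gate. The cells of each genotype and cell type share 1 title word and 1 number after the letter p (p2 in KO CD4 and p3 in WT CD4 titles), so genotype and these title marks cannot be told apart. Each genotype is therefore 1 sample, cells are not replicates, and the values below are a description with no test and no p-value. KO and WT serve as 2 separate looks at the same split.

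Il27ra, the gene labelled as deleted, was found in 24 of 33 Gzmb-positive and 17 of 45 Gzmb-negative cells labelled KO (72.7% and 37.8%). In the WT group it was found in 12 of 22 Gzmb-positive and 26 of 57 Gzmb-negative cells (54.5% and 45.6%). Its difference, Gzmb-positive minus Gzmb-negative in mean log2(FPKM + 1), was 2.31 in cells labelled KO and -0.06 in WT. Within cells that held Foxp3 RNA the difference was 2.23 in KO and 1.83 in WT. Among cells paired on genes found, as set out below, it was 1.68 in KO and -1.20 in WT. The gene labelled as deleted was thus found on both sides of the libraries labelled KO, and on the Gzmb-positive side in a larger share of cells than in WT. Gene-level values do not show which part of the gene the reads come from, so they do not check the label, and KO below means cells labelled KO.

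Cd4 RNA was above 0 in 87.9% of KO Gzmb-positive cells and 91.1% of KO Gzmb-negative cells, and in 95.5% of WT Gzmb-positive cells and 73.7% of WT Gzmb-negative cells. Cd8a was above 0 in 6.06% to 9.09% of cells on every side. The other CD8 chain gene, Cd8b1, was above 0 in 42.4% of KO Gzmb-positive and 26.7% of KO Gzmb-negative cells. For WT the shares with Cd8b1 were 36.4% of Gzmb-positive and 19.3% of Gzmb-negative cells. More genes were found per cell on the Gzmb-positive side. Their median number was 2809 in KO Gzmb-positive and 2500 in KO Gzmb-negative cells, and 2970 in WT Gzmb-positive and 2138 in WT Gzmb-negative cells. The median of estimated reads was 444593 in KO Gzmb-positive and 379201 in KO Gzmb-negative cells, and 443914 in WT Gzmb-positive and 205013 in WT Gzmb-negative cells. Cells lacking B2m or all Cd3 chains numbered 0 of 33 Gzmb-positive and 1 of 45 Gzmb-negative in KO, and 0 of 22 Gzmb-positive and 7 of 57 Gzmb-negative in WT. Cells of both sides were therefore also paired on genes found within a genotype, which left 32 pairs in KO and 19 pairs in WT. Among paired cells the median of genes found was 2797.5 in Gzmb-positive and 2678.5 in Gzmb-negative KO cells. In WT it was 2895 and 2598, so a smaller gap in the same direction remained. Estimated reads were not matched.

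Gzmb-positive cells made up 42.3% of kept KO CD4 cells (33 of 78, exact Clopper-Pearson 95% interval 31.2 to 54%) and 27.8% of kept WT CD4 cells (22 of 79, 18.3 to 39.1%). These intervals, like all others here, and the limits given for counts of 0, cover counting error over cells only, since all cells of a genotype come from 1 sample. The members just inside the threshold were few. The lowest KO Gzmb-positive cells had 1.83, 2.06 and 2.76 FPKM of Gzmb, each worth about 1 estimated read, then 7.54 and 108.08 FPKM. The lowest WT Gzmb-positive cells had 3.56 FPKM, worth about 1 estimated read, then 58.85 FPKM. The medians were 3370.68 FPKM in KO and 1333.48 FPKM in WT Gzmb-positive cells, and every cell outside the threshold was at 0. Gzmb is on chromosome 14 (mm10, 56258838 to 56262260, minus strand) and is left out of all results that follow.

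Most Gzmb-positive CD4 cells held Foxp3 RNA and most Gzmb-negative ones did not. Foxp3, on chromosome X (mm10, 7573644 to 7595245, plus strand), encodes the factor that defines regulatory T cells. In KO, 27 of 33 Gzmb-positive cells were Foxp3-positive (81.8%, 64.5 to 93%), against 12 of 45 Gzmb-negative cells (26.7%, 14.6 to 41.9%). In WT, 19 of 22 Gzmb-positive cells were Foxp3-positive (86.4%, 65.1 to 97.1%), against 11 of 57 Gzmb-negative cells (19.3%, 10 to 31.9%). Among cells paired on genes found, the shares were 81.2% of Gzmb-positive and 21.9% of Gzmb-negative cells in KO, and 84.2% of Gzmb-positive and 26.3% of Gzmb-negative cells in WT.

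Read the other way, 27 of 39 KO Foxp3-positive cells held Gzmb RNA (69.2%, 52.4 to 83%), against 6 of 39 KO Foxp3-negative cells (15.4%, 5.86 to 30.5%). In WT it was 19 of 30 Foxp3-positive cells (63.3%, 43.9 to 80.1%), against 3 of 49 Foxp3-negative cells (6.12%, 1.28 to 16.9%). Foxp3-positive cells with no Gzmb value above 0 thus numbered 12 in KO and 11 in WT.

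**Figure D1:**
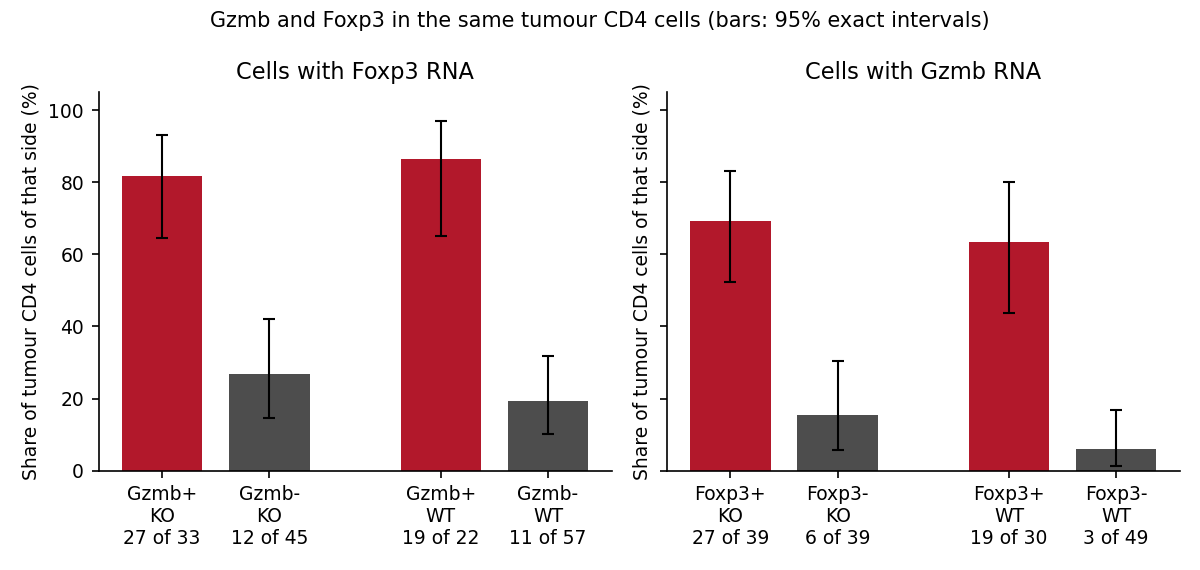
Left, share of CD4 cells (%) with Foxp3 above 0 FPKM on the Gzmb-positive and Gzmb-negative side, KO then WT. Right, share with Gzmb above 0 among Foxp3-positive and Foxp3-negative cells. Bars are shares, lines exact 95% intervals. Foxp3 was found in 81.8% of Gzmb-positive and 26.7% of Gzmb-negative KO cells, and in 86.4% of Gzmb-positive and 19.3% of Gzmb-negative WT cells.

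Foxp3 was also counted in tumour CD8 cells of the same series, whose titles carry other words than the CD4 titles. Few of those cells held Foxp3, so they cannot give the rate of stray Foxp3 reads among CD4 libraries. Among Gzmb-positive CD8 cells, 2 of 25 in KO and 0 of 38 in WT had Foxp3 above 0, and among Gzmb-negative CD8 cells 1 of 49 in KO and 0 of 29 in WT. Taking 3 counts of the total as the limit, the count of 0 allows a share of up to 7.89% in the WT Gzmb-positive CD8 cells, and the exact upper bound is 9.25%. The median number of genes found in Gzmb-positive CD8 cells was 2831 in KO and 3769 in WT, above the 2809 and 2970 of the Gzmb-positive CD4 cells.

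For every gene, the difference is the mean log2(FPKM + 1) over Gzmb-positive cells minus that over Gzmb-negative cells. Genes entered when at least 20% of cells on one or the other side had them above 0, in KO and in WT alike, which left 4990. A gene was counted as higher or lower where the difference reached 1 or -1. A gene passes this minimum through the side where it is high, so the kept members of a list lean towards genes that differ. In KO, 947 genes were at least 1 higher (19% of those kept) and 3.79% at least 1 lower. In WT, 1795 were at least 1 higher (36%) and 2.08% at least 1 lower. In both genotypes 608 genes were higher (12.2%) and 18 lower (0.361%). The median over all kept genes was 0.21 in KO and 0.65 in WT, the same direction as the difference in genes found per cell. Among paired cells these medians were 0.07 and 0.05, and 5.13% of 5221 genes were higher and 1.95% lower in both genotypes. Across the 4990 genes, which share cells and depth, the KO and WT differences had a Pearson r of 0.43 and the same sign for 62.7%. Among paired cells the same 4990 genes had an r of 0.27 and the same sign for 56.2%.

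The genes with the largest positive differences included Foxp3 itself (5.48 in KO and 6.23 in WT) and several receptors listed as regulatory T cell genes. Tnfrsf9 encodes 4-1BB, a costimulatory receptor of the TNF receptor family (chromosome 4, mm10, 150914562 to 150946102). Its lowest, median and highest log2(FPKM + 1) levels were 0, 11.77 and 13.42 in KO Gzmb-positive cells, against 0, 0 and 12.82 in KO Gzmb-negative cells. In WT they were 0, 11.92 and 14.04 in Gzmb-positive cells, against 0, 0 and 12.36 in Gzmb-negative cells. Single cells of both sides overlapped, from 0 to above 12, and the sides differed in how many cells held the transcript. It was found in 28 of 33 Gzmb-positive and 12 of 45 Gzmb-negative KO cells, and in 16 of 22 Gzmb-positive and 16 of 57 Gzmb-negative WT cells. The differences were 7.04 in KO and 6.56 in WT, the largest among the ranked genes by the smaller of both.

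Other listed members of that receptor family were mixed. Tnfrsf4, encoding OX40, had a mean level of 9.18 ± 4.65 (SD over 33 cells) in KO Gzmb-positive cells, against 3.91 ± 5.26 in the 45 Gzmb-negative cells. In WT it had 8.57 ± 4.91 over 22 Gzmb-positive cells, against 3.11 ± 4.79 over 57 Gzmb-negative cells. Tnfrsf18, encoding GITR, differed by 3.62 in KO and 4.61 in WT, and was already found in 66.7% of KO and 56.1% of WT Gzmb-negative cells. Tnfrsf1b, the second TNF receptor, differed by 2.63 in KO and 4.35 in WT. Cd27 differed by 3.69 in KO and 2.67 in WT, but by 0.45 among paired WT cells. Tnfrsf25, encoding death receptor DR3, differed by -1.01 in KO and -0.48 in WT, and by -1.06 in KO and -1.48 in WT among paired cells.

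Pglyrp1, which encodes a secreted peptidoglycan recognition protein, was found in 20 of 33 Gzmb-positive and 5 of 45 Gzmb-negative KO cells (60.6% and 11.1%). In WT it was found in 18 of 22 Gzmb-positive and 10 of 57 Gzmb-negative cells (81.8% and 17.5%). Klrg1, a lectin-type inhibitory receptor of terminally differentiated lymphocytes, was found in 54.5% of Gzmb-positive and 13.3% of Gzmb-negative KO cells, and in 63.6% of Gzmb-positive and 12.3% of Gzmb-negative WT cells. Il2ra, the high-affinity chain of the IL-2 receptor, was found in 84.8% of Gzmb-positive and 42.2% of Gzmb-negative KO cells, and in 81.8% of Gzmb-positive and 26.3% of Gzmb-negative WT cells. The differences were 4.72 in KO and 5.76 in WT for Pglyrp1, 4.01 in KO and 5.03 in WT for Klrg1, and 3.66 in KO and 3.82 in WT for Il2ra.

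The remaining genes of the 15 most higher were Glrx (glutaredoxin), Arl5a, Ctla4, Fgl2, Gimap7, Cyb5, Capg and Ccr2. Ctla4, the inhibitory receptor for CD80 and CD86, differed by 4.24 in KO and 4.21 in WT. Fgl2, a secreted mediator of regulatory T cells, differed by 4.49 in KO and 4.16 in WT. Ccr2, a chemokine receptor that draws cells into inflamed tissue, differed by 5.26 in KO and 3.59 in WT. The other 5 ranged from 3.87 to 5.74 in KO and from 3.66 to 4.63 in WT. All 15 kept their direction among paired cells, as the rule that chose them required, but not always their size. Among paired cells Ctla4 differed by 4.52 in KO and 2.055 in WT, Fgl2 by 4.01 and 3.83, and Ccr2 by 5.09 and 3.13.

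**Figure D2:**
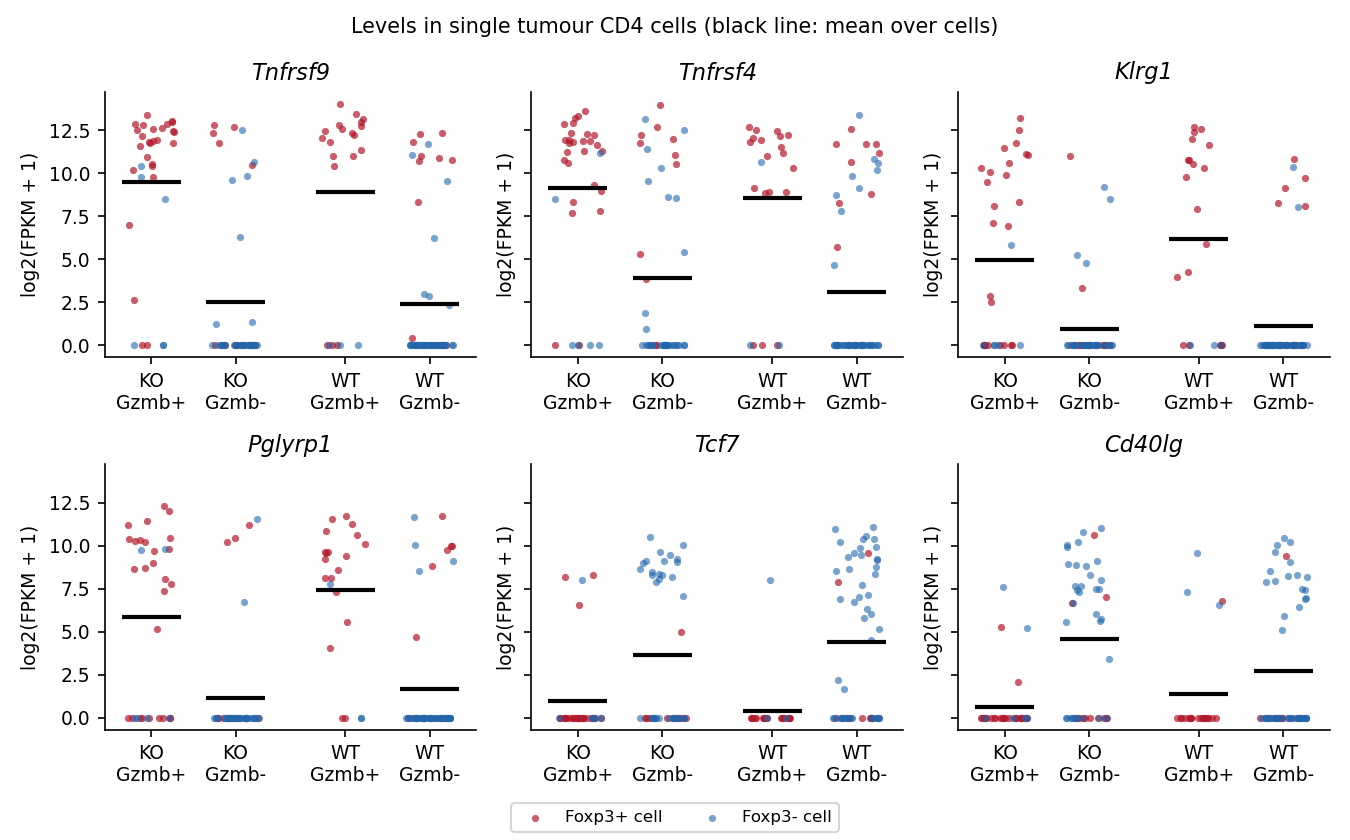
Levels, log2(FPKM + 1), of 6 genes in each kept CD4 cell, KO then WT with the Gzmb-positive side left of the Gzmb-negative one. Points are cells, red with Foxp3 RNA and blue without, and black lines are means. Cells form a group at 0 and a group with the transcript, as for Tnfrsf9, found in 28 of 33 KO Gzmb-positive cells.

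Of 23 listed regulatory T cell genes, 22 passed the minimum, Foxp3 included. Of these, 18 were at least 1 higher and 0 lower in both genotypes, where 12.2% of all kept genes were higher. The list median was 3.01 in KO and 3.74 in WT. Among paired cells 16 were higher and the medians were 3.16 in KO and 2.79 in WT. Beside the genes above, Ikzf2, encoding Helios, differed by 2.39 in KO and 4.29 in WT. Tigit, an inhibitory receptor, differed by 3.28 in KO and 4.88 in WT. Itgae, the CD103 integrin chain, differed by 2.75 in KO and 1.84 in WT. Nt5e, encoding the ecto-enzyme CD73, differed by only 0.31 in KO and 0.42 in WT. Since most Gzmb-positive cells held Foxp3 RNA, these counts and the Foxp3 shares describe the same cells and are not separate evidence.

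Genes lower in Gzmb-positive cells were fewer and included Tcf7, Ccr7 and Cd40lg. Tcf7, encoding TCF-1 (chromosome 11, mm10, 52252371 to 52283014), was found in 4 of 33 KO Gzmb-positive cells, against 19 of 45 Gzmb-negative cells. Among WT cells it was found in 1 of 22 Gzmb-positive cells, against 31 of 57 Gzmb-negative cells. Its differences were -2.69 in KO and -4.01 in WT, and among paired cells -3.43 and -4.95. Ccr7, the receptor that guides cells to lymph nodes, was found in 6.06% of KO Gzmb-positive and 22.2% of KO Gzmb-negative cells. In WT the shares were 4.55% and 26.3%. S1pr1, needed to leave lymph nodes, differed by -1.63 in KO and -1.50 in WT. Of 17 listed naive and memory genes 11 passed the minimum, and Ccr7, Tcf7 and S1pr1 were lower in both genotypes and 0 were higher, where 0.361% of all kept genes were lower. The list median was -0.34 in KO and -0.74 in WT. Within Foxp3-positive cells it was -0.080 in KO and 0.37 in WT over 9 kept genes, so the WT sign was opposite there.

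Cd40lg, encoding CD40 ligand, the signal by which helper T cells activate antigen-presenting cells, was found in 4 of 33 Gzmb-positive and 26 of 45 Gzmb-negative KO cells. WT cells with it numbered 4 of 22 Gzmb-positive and 19 of 57 Gzmb-negative cells. The differences were -3.98 in KO and -1.33 in WT, and the WT shares were 18.2% of Gzmb-positive cells (5.19 to 40.3%) and 33.3% of Gzmb-negative cells (21.4 to 47.1%). Gpr183, an oxysterol receptor that positions lymphocytes, differed by -2.04 in KO and -1.30 in WT. Among the 15 most lower genes were also B4galnt1, Hsf1, Arid5a, Cnot10, Evl, Itgb1, Tespa1, Slc20a1 and Rps9, between -1.06 and -2.39 in KO and between -1.05 and -2.20 in WT. Cd226, an activating receptor that shares ligands with Tigit, differed by -1.11 in KO and -1.01 in WT, and Cd28 by -2.09 in KO and -0.18 in WT.

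Inhibitory receptors other than Ctla4 and Klrg1 were also higher. Of 10 kept coinhibitory receptors 6 were higher in both genotypes and 0 lower, with medians of 2.04 in KO and 2.54 in WT. Lag3 differed by 2.14 in KO and 2.83 in WT, and Havcr2, encoding TIM-3, by 1.96 in KO and 3.11 in WT. Pdcd1, encoding PD-1, differed by -0.69 in KO and 2.24 in WT. Costimulation and activation receptors had 8 higher and 2 lower of 14, with medians of 2.40 in KO and 2.92 in WT, where 12.2% of all kept genes were higher and 0.361% lower. Among paired cells 6 of 15 were higher and 3 lower, where 5.13% of all genes were higher and 1.95% lower, and the WT median was 0.81.

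Cytokine genes were sparse: 4 of 15 listed effector cytokines and chemokines passed the minimum, and these were Il10, Ltb, Ccl5 and Ebi3. Il10, encoding the suppressive cytokine IL-10, was found in 12 of 33 Gzmb-positive and 3 of 45 Gzmb-negative KO cells. The WT counts were 7 of 22 Gzmb-positive and 3 of 57 Gzmb-negative cells. Its differences were 2.58 in KO and 1.97 in WT. Ebi3, a subunit shared by IL-27 and IL-35, differed by 1.09 in KO and 1.97 in WT. Cish, a feedback inhibitor of STAT5 signalling, differed by 2.95 in KO and 3.74 in WT, and Il2rb, the IL-2 receptor beta chain, by 2.66 in KO and 2.83 in WT. Of 19 kept genes on the cytokine receptor and STAT5 list 6 were higher in both and 0 lower. The shares over all kept genes were 12.2% higher and 0.361% lower in both genotypes.

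Among transcription factors, 6 of 14 kept genes on the effector and exhaustion list were higher in both genotypes and 0 lower. Ikzf3, encoding Aiolos, differed by 3.16 in KO and 2.60 in WT. Maf differed by 2.49 in KO and 3.63 in WT, Hif1a, the hypoxia response factor, by 2.67 in KO and 3.77 in WT, and Irf8 by 2.65 in KO and 2.18 in WT. Of 11 kept T helper regulators 2 were higher in both and 0 lower, and 1 was higher among paired cells, where 12.2% of all kept genes were higher in all cells and 5.13% in paired cells. Stat6, which carries IL-4 signals, differed by 1.42 in KO and 1.89 in WT.

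On the metabolism and interferon lists fewer genes were higher in both genotypes among paired cells than among all cells, as over all kept genes, of which 5.13% were higher among paired cells and 12.2% among all cells. Of 16 kept glycolysis genes 7 were higher in both genotypes and 0 lower, and 2 among paired cells, Pkm (pyruvate kinase) and Slc16a3 (a lactate exporter). Slc16a3 differed by 2.73 in KO and 3.44 in WT, and by 2.78 and 2.31 among paired cells. Of 29 kept interferon-stimulated genes 16 were higher in both and 0 lower, with medians of 1.46 in KO and 1.45 in WT. Among paired cells 4 of 31 were higher, Igtp, Psmb10, Zbp1 and Ly6a, and the medians were 1.39 in KO and -0.20 in WT. Oxidative phosphorylation genes had 6 of 21 higher and 0 lower, and 1 higher and 1 lower among paired cells. Housekeeping genes had 2 of 17 higher and 0 lower, with medians of 0.38 in KO and 1.91 in WT, and 0.31 and 0.03 among paired cells. That shift of housekeeping genes in WT stands beside every WT difference here.

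Cell division genes had list medians of 0.091 in KO and 0.57 in WT, below the 0.21 and 0.65 of all kept genes. Of 40 listed genes 15 passed the minimum, and 0 were higher and 0 lower in both genotypes. Mki67 or Top2a was found in 9 of 33 Gzmb-positive and 5 of 45 Gzmb-negative KO cells, and in 5 of 22 Gzmb-positive and 13 of 57 Gzmb-negative WT cells. Of 17 kept immediate early and stress genes 0 were higher and 0 lower in both, with medians of -0.49 in KO and 0.95 in WT. Chemokine receptors and adhesion genes had 6 of 18 higher and 1 lower. Antigen receptor genes had 5 of 16 higher and 1 lower, and cholesterol synthesis genes 1 of 8 higher and 0 lower. Of all kept genes, 12.2% were higher and 0.361% lower in both genotypes, and the cholesterol synthesis count lies near that share.

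**Figure D3:**
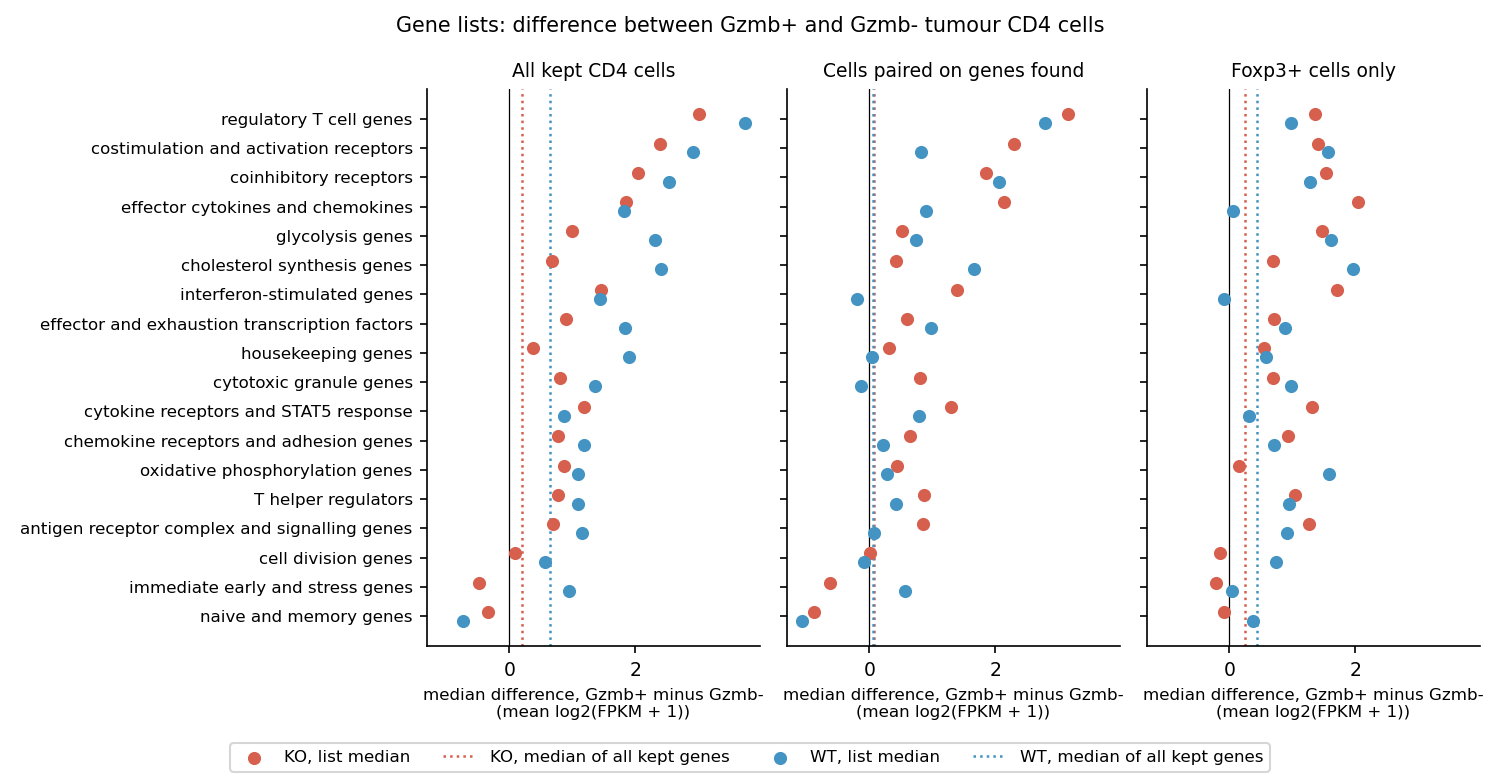
Median difference of mean log2(FPKM + 1), Gzmb-positive minus Gzmb-negative, for each gene list, KO red above WT blue. Panels show all kept CD4 cells, cells paired on genes found, and Foxp3-positive cells only, and dotted lines are the medians of all kept genes. Regulatory T cell genes had medians of 3.01 in KO and 3.74 in WT in all cells and 1.36 and 0.97 in Foxp3-positive cells.

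The same split was then described within Foxp3-positive cells, 27 Gzmb-positive and 12 Gzmb-negative in KO and 19 and 11 in WT. Of 5338 genes kept there, 518 were at least 1 higher (9.7%) and 73 at least 1 lower (1.37%) in both genotypes. The r between KO and WT differences was 0.12 across these genes, and 55.1% had the same sign. Of 22 kept regulatory T cell genes 6 were higher in both, Il2ra, Tnfrsf9, Tigit, Klrg1, S100a4 and S100a6, and 0 lower. Foxp3 itself differed by 0.87 in KO and -0.54 in WT, with median levels of 10.02 in Gzmb-positive and 9.69 in Gzmb-negative KO cells, and 10.21 in Gzmb-positive and 10.90 in Gzmb-negative WT cells. The median number of genes found was 2957 in Gzmb-positive and 2533 in Gzmb-negative KO cells, and 3193 in Gzmb-positive and 2504 in Gzmb-negative WT cells.

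S100a4, a calcium-binding protein of motile and effector cells, was found in 19 of 27 Gzmb-positive and 4 of 12 Gzmb-negative Foxp3-positive KO cells. For WT the counts were 18 of 19 Gzmb-positive and 4 of 11 Gzmb-negative cells. Its lowest, median and highest levels were 0, 9.25 and 12.32 in KO Gzmb-positive cells, against 0, 0 and 10.10 in KO Gzmb-negative cells. In WT they were 0, 9.38 and 12.07 in Gzmb-positive cells, against 0, 0 and 9.35 in Gzmb-negative cells. The differences were 3.61 in KO and 5.67 in WT, and cells of both sides overlapped. Its neighbour S100a6 differed by 3.89 in KO and 3.64 in WT.

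Klrg1 was found in 17 of 27 Gzmb-positive and 2 of 12 Gzmb-negative Foxp3-positive KO cells, and in 14 of 19 Gzmb-positive and 5 of 11 Gzmb-negative WT ones. Its differences within Foxp3-positive cells were 4.63 in KO and 2.94 in WT. Pglyrp1 differed by 3.75 in KO and 3.17 in WT. Tnfrsf9 differed by 5.55 in KO and 2.29 in WT, where it was found in 16 of 19 Gzmb-positive and 9 of 11 Gzmb-negative cells. Ctla4 differed by 1.18 in KO and 0.77 in WT and Tnfrsf18 by 0.35 in KO and 2.06 in WT, less than in all CD4 cells. Capg, an actin-capping protein, differed by 2.64 in KO and -0.16 in WT.

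By a ranking added after these values were seen, the 10 genes most higher within Foxp3-positive cells were Anxa2, S100a6, Gem, S100a4, Wls, Akr1a1, Cd6, Glipr1, Pglyrp1 and Prelid1. Anxa2, encoding the membrane-binding annexin A2, a partner of S100 proteins, differed by 3.82 in KO and 3.71 in WT. Gem, a small GTPase induced by activation, differed by 4.15 in KO and 3.63 in WT. The 10 most lower were Bre, Snrpb, Fkbp4, Pitpnb, Tbxa2r, Pick1, Pwp1, Mat2a, Mrpl37 and Vta1, between -1.64 and -2.55 in KO and between -1.85 and -3.14 in WT. With 12 and 11 cells on the Gzmb-negative side, a few cells set these values. Tcf7 was found in 3 of 27 Gzmb-positive and 1 of 12 Gzmb-negative Foxp3-positive KO cells, and in 0 of 19 Gzmb-positive and 2 of 11 Gzmb-negative WT ones.

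**Figure D4:**
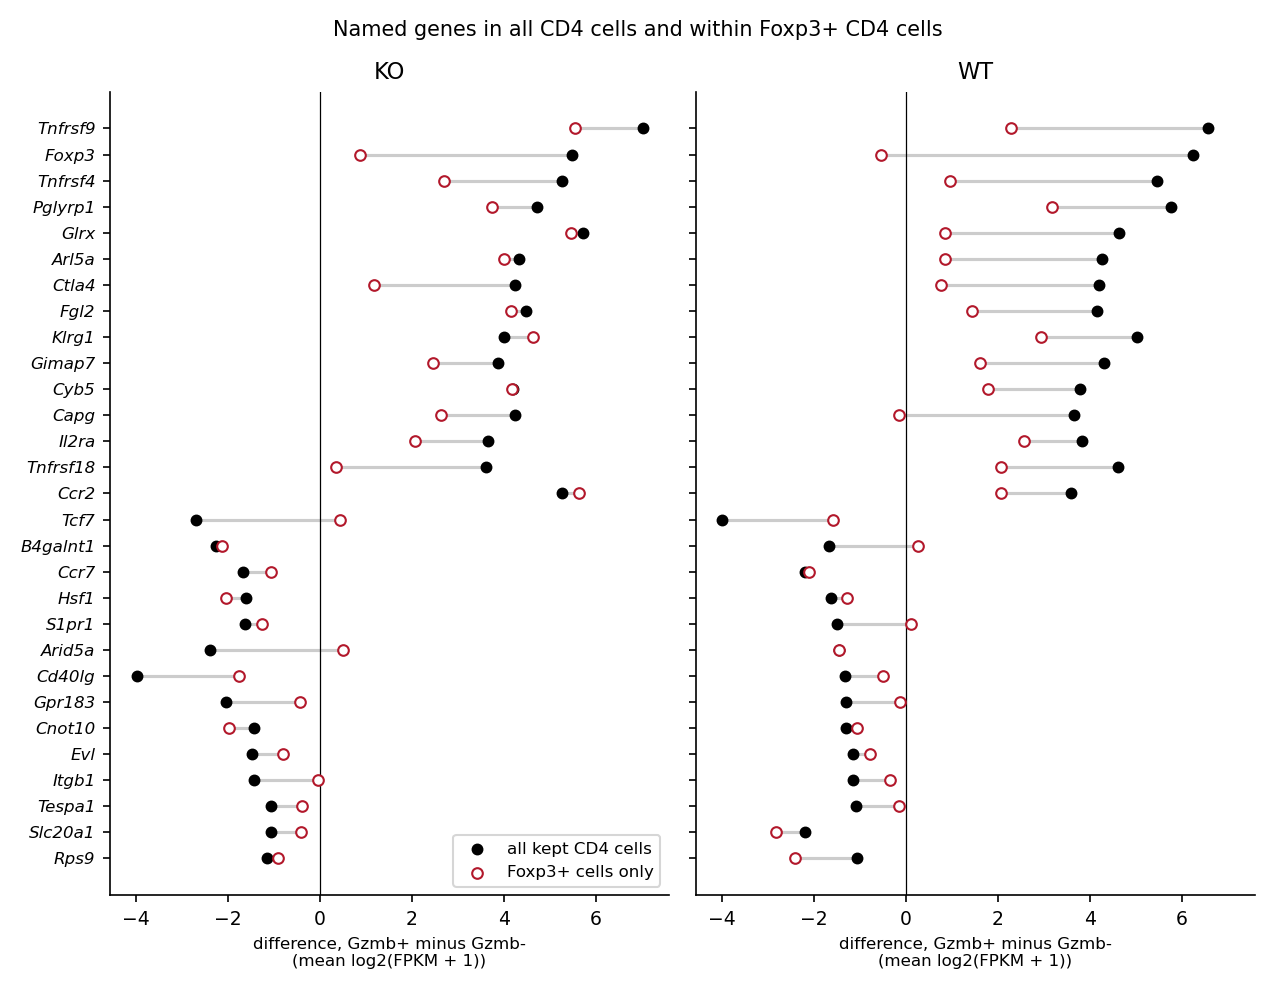
Difference of mean log2(FPKM + 1), Gzmb-positive minus Gzmb-negative, for the 15 most higher and 14 of the 15 most lower genes, KO left and WT right. Black points are all kept CD4 cells and open red points Foxp3-positive cells only. Within Foxp3-positive cells Klrg1 differed by 4.63 in KO and 2.94 in WT, and Foxp3 by 0.87 and -0.54.

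Perforin and other granzymes were found in few Gzmb-positive CD4 cells. Gzmb-positive tumour CD8 cells of the same genotype label are set beside them, with no test of the difference. Prf1, encoding perforin, was found in 0 of 33 KO CD4 cells, which allows a share of up to 9.09% by the limit of 3 counts of the total (exact upper bound 10.6%), against 14 of 25 KO CD8 cells (56%). In WT the counts were 3 of 22 CD4 cells (13.6%, 2.91 to 34.9%), against 33 of 38 CD8 cells (86.8%). Gzmk was found in 1 of 33 KO CD4 cells, against 9 of 25 KO CD8 cells, and in 0 of 22 WT CD4 cells, against 31 of 38 WT CD8 cells. Gzma was found in 2 of 33 KO CD4 cells, against 11 of 25 KO CD8 cells, and in 0 of 22 WT CD4 cells, against 8 of 38 WT CD8 cells. Eomes, a T-box factor of cytotoxic cells, was found in 0 of 33 KO CD4 cells, against 6 of 25 KO CD8 cells, and in 0 of 22 WT CD4 cells, against 25 of 38 WT CD8 cells.

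Ifng was found in 3 of 33 KO CD4 cells, against 11 of 25 KO CD8 cells, and in 3 of 22 WT CD4 cells, against 17 of 38 WT CD8 cells. Fasl, the death ligand, was found in 18.2% of Gzmb-positive CD4 cells in each genotype, against 68% of KO and 76.3% of WT Gzmb-positive CD8 cells. Among Gzmb-negative CD4 cells Fasl was found in 33.3% in KO and 19.3% in WT, and Ifng in 13.3% and 10.5%. Srgn, encoding the granule proteoglycan serglycin, was found in all 33 KO and all 22 WT Gzmb-positive CD4 cells. It was also found in 93.3% of KO and 77.2% of WT Gzmb-negative CD4 cells. Among Gzmb-positive CD8 cells 92% in KO and 97.4% in WT held Srgn. Its differences between Gzmb-positive and Gzmb-negative CD4 cells were 1.29 in KO and 3.40 in WT. Of 24 listed cytotoxic granule genes 13 passed the minimum, and Srgn, Ctsd and Stx11 were higher in both genotypes and 0 lower. Of all kept genes, 12.2% were higher and 0.361% lower in both. Among paired cells 2 of 14 were higher, Srgn and Stx11, where 5.13% of all genes were higher. Within Foxp3-positive cells 1 of 12 was higher, Nkg7, where 9.7% of all genes were. The WT list median was 1.36 in all cells and -0.14 among paired cells. Ctsd differed by -1.25 among paired WT cells. Il2ra ran the other way, found in 28 of 33 KO and 18 of 22 WT Gzmb-positive CD4 cells, against 10 of 25 KO and 8 of 38 WT CD8 cells. So did Klrg1, in 54.5% of KO and 63.6% of WT Gzmb-positive CD4 cells, against 32% and 36.8% of CD8 ones. Stx11 was found in 42.4% of KO Gzmb-positive CD4 and 12% of CD8 cells, but in 31.8% and 50% in WT. Rab27a was found in 60.6% of KO Gzmb-positive CD4 and 64% of CD8 cells, and in 59.1% and 71.1% in WT.

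**Figure D5:**
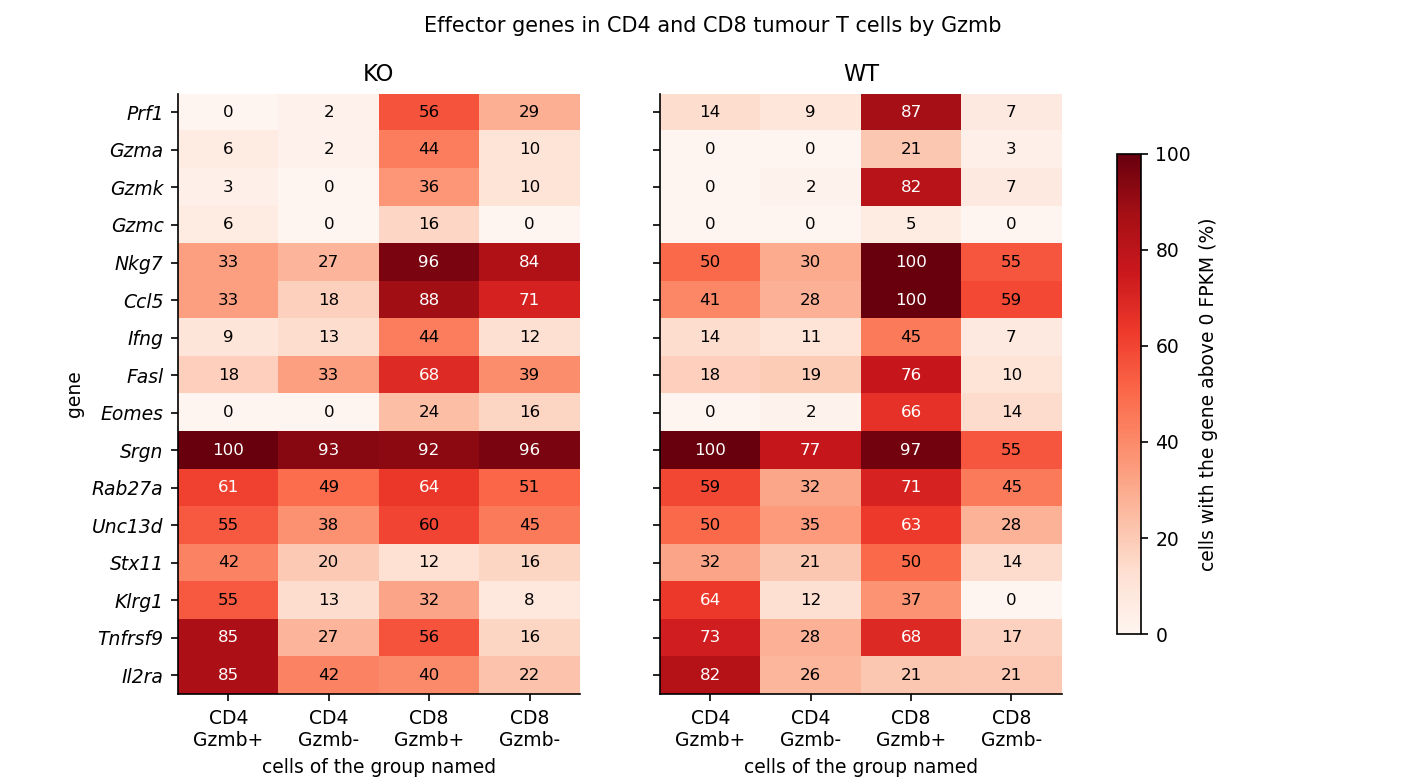
Share of cells (%) with each gene above 0 FPKM, rounded to whole percent, in CD4 and CD8 tumour T cells with and without Gzmb, KO left and WT right. Darker red is a larger share. Prf1 was found in 0% of Gzmb-positive CD4 and 56% of Gzmb-positive CD8 cells in KO, and in 13.6% of CD4 and 86.8% of CD8 ones in WT.

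The Gzmb-positive cells without Foxp3 RNA numbered 6 in KO and 3 in WT. Prf1 and Eomes were at 0 in all 9. The 6 KO cells were mixed. Their Ccl5 values were 0, 474.63, 1467.77, 2511.31, 0 and 0 FPKM, and their Nkg7 values 0, 8436.46, 2757.61, 0, 0 and 0 FPKM. Nkg7 encodes a granule membrane protein of cytotoxic and T helper 1 cells. The third held Gzma at 1022.85 and Gzmk at 1182.51 FPKM, and the second held the natural killer receptors Klrb1c at 1705.85 and Klra9 at 1409.08 FPKM. Ctla4 was at 1376.28, 0, 406.51, 0, 3141.59 and 589.85 FPKM in the 6 cells, Tnfrsf9 at 0, 367.63, 0, 0, 882.26 and 1382.5 FPKM, and Tnfrsf4 at 0 in the first 4 and at 2325.53 and 364.24 FPKM in the others. Ctla4 was thus found in 4 of these 6 cells and Tnfrsf9 in 3. Gzmb itself was at about 12.1 estimated reads in the fifth and 2946 in the sixth. The 3 WT cells held Gzmb at about 95, 133.04 and 1.01 estimated reads, so that membership of the third rests on about 1 read. They held Ccl5 at 1038.82, 2511.35 and 831.4 FPKM, Nkg7 at 418.89, 4492.44 and 1685.11 FPKM and Cd40lg at 92.1, 158.28 and 757.53 FPKM. Ifng was at 977.6 and 564.22 FPKM in 2 of these WT cells and 0 in the other. A Foxp3 value of 0 in a single library does not show that the gene was silent.

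Markers of other cells were looked at over their whole lists, and not every list is given here. Class II antigen presentation genes had 7 of 7 markers found in KO and 6 of 7 in WT Gzmb-positive cells, with summed levels of 0 to 93846 and 0 to 833 FPKM. In Gzmb-negative cells 7 of 7 were found in each genotype, with sums of 0 to 163384 in KO and 0 to 1740 in WT. The median sums were 189.94 FPKM in Gzmb-positive and 0 in Gzmb-negative KO cells, and 23.2 FPKM in Gzmb-positive and 0 in Gzmb-negative WT cells, and Cd74 was at least 1 higher in both genotypes. Macrophage and monocyte markers were found for 7 of 12 in Gzmb-positive and 9 of 12 in Gzmb-negative KO cells, with sums of 0 to 2176 and 0 to 7220 FPKM. The numbers were 5 of 12 and 8 of 12 in WT, with sums of 0 to 1688 and 0 to 1672 FPKM. Csf1r, Emr1, C1qa and C1qc were at 0 in the Gzmb-positive cells of both genotypes. Of these, Csf1r and C1qc were also at 0 in WT Gzmb-negative cells, and Emr1 and C1qa in KO Gzmb-negative cells. Cells holding 3 or more myeloid markers, a set wider than this list, numbered 6 of 33 Gzmb-positive and 5 of 45 Gzmb-negative in KO. The WT numbers were 5 of 22 Gzmb-positive and 8 of 57 Gzmb-negative cells. Natural killer markers were found for 7 of 10 in KO and 1 of 10 in WT Gzmb-positive cells, with summed levels of 0 to 8269 FPKM in KO and 0 to 1861 FPKM in WT and above 0 in 4 of 33 and 2 of 22 cells. In Gzmb-negative cells 3 of 10 in KO and 4 of 10 in WT were found, with sums of 0 to 13983 and 0 to 581 FPKM. Cd8a or Cd8b1 was found in 15 of 33 Gzmb-positive and 14 of 45 Gzmb-negative KO cells, and in 10 of 22 Gzmb-positive and 14 of 57 Gzmb-negative WT cells. Without those cells, 15 of 18 Gzmb-positive and 8 of 31 Gzmb-negative KO cells were Foxp3-positive, and in WT 10 of 12 Gzmb-positive and 5 of 43 Gzmb-negative ones. B cell markers were above 0 in 4 of 33 Gzmb-positive and 0 of 45 Gzmb-negative KO cells, and in 2 of 22 and 3 of 57 WT cells. Summed melanoma markers reached 1139 FPKM in Gzmb-positive and 52.1 FPKM in Gzmb-negative KO cells, and 622 and 2030 FPKM in WT. The part of these markers in the gene differences was not tested.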

How the data were processed

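The authors deposited a table of FPKM values (per the labels, TMM-normalized), for 23420 genes and 378 libraries. The build mm10 and the tools Bowtie and RSEM stand in the submitters' processing notes, and their versions are not given in the sources used here. FPKM from estimated counts are not counts, so no count model was run.

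The members and gene lists were chosen with earlier results of these data known. Cells with at least 1000 genes above 0 were split at 0 FPKM of Gzmb. Means of log2(FPKM + 1) were compared per genotype for genes above 0 in at least 20% of cells of either side in both. Such differences understate the change of low genes. Named genes were the 15 largest each way by the smaller of the KO and WT differences, of the same sign in paired cells, Foxp3, Il27ra, Cd4, Cd8a, Cd8b1, Mki67, and 2 per list. Antigen receptor, mitochondrial, predicted and small RNA genes were left out. Other values shown are list members, and a few genes are not reported here. With 1 sample per genotype no test was run. A list was described by counts and medians, for lists with at least 3 kept members.

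Pairs were matched on genes found within 0.2 on the log2 scale. Depth was estimated from FPKM times gene length (GENCODE M21), whose lowest common step in single-transcript genes is about 1 read. A median of 56.6% of low values was whole within 0.1 of a read, so it is approximate. No doublet caller was run. Scripts used Python 3.11.15, pandas 2.3.3, numpy 2.4.6 and scipy 1.17.1, and were tested on simulated data. Alternatives covered the minimum of genes, the Gzmb threshold, the pseudocount, filters, cell classes, Foxp3 and, added after seeing the data, thinning to 100000 estimated reads. A difference needed at least 5 cells on each side. The minimums of 5 cells and 3 list members were set after seeing the data.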

Additional observations from a re-analysis of the deposited data

Results flagged for a closer look

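In 6 listed genes the Gzmb-positive minus Gzmb-negative difference was at least 1 in size and had opposite signs in the libraries labelled KO and in WT. With 1 sample per genotype the difference between genotypes was not tested. Egr1, an immediate early transcription factor, differed by -3.03 in KO and 1.01 in WT, and by -2.66 and 0.03 among paired cells. Cd69, an early activation marker, differed by -1.07 in KO and 1.46 in WT. Mcm2, a DNA replication helicase subunit, differed by -1.17 in KO and 1.87 in WT. Tbx21, encoding T-bet, differed by 1.13 in KO and -1.19 in WT. Socs3, a feedback inhibitor of STAT3 signalling, differed by 1.44 in KO and -1.55 in WT. Ifi47, an interferon-induced GTPase, differed by 1.02 in KO and -1.38 in WT.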

How the results depend on the processing

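No paired analysis was possible because each genotype is 1 sample and the numbers of the libraries only name cells. The pairing of cells on genes found, described above, matches cells of both sides within a genotype. Over 14 alternatives, 534 list medians, gene counts and shares stayed within the limits set for them, 57 moved further and 5 medians of at least 1 in size turned sign, and the cause was not tested. Counting medians under 1 in size too, 19 list medians had the opposite sign under an alternative, 8 of them in Foxp3-negative cells. The cell division median in KO, 0.091, was among them under 7 alternatives. Shares of Foxp3-positive cells among Gzmb-positive cells ran from 77.8 to 87.5% in KO and from 82.4 to 90.5% in WT over the alternatives that keep both kinds of cell. Those among Gzmb-negative cells ran from 21.9 to 28.3% in KO and from 11.6 to 26.3% in WT. Depth limits what a 0 shows, and a few cells set the differences within Foxp3-positive or Foxp3-negative cells. Differences in Foxp3-negative WT cells were not computed, with 3 Gzmb-positive cells, nor were values fixed at 0 by leaving out cells with Cd8a, Cd8b1, Mki67 or Top2a.

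In Foxp3-negative KO cells (6 Gzmb-positive and 33 Gzmb-negative) list medians were -2.36 for effector cytokines, -0.24 for interferon-stimulated genes, -0.75 for cholesterol synthesis, -0.57 for housekeeping, -0.31 for T helper, -0.27 for glycolysis, 0.078 for oxidative phosphorylation and 0.78 for regulatory T cell genes. Genes with the opposite sign there were Ltb (-2.36), Cox6a1 (-0.83), Ly6a (-0.60), Ctsd (-0.48), Fdps (-0.46), Psmb9 (-0.19), Actb (-0.19), Il10 (-0.065), Tespa1 (0.51), Slc20a1 (0.59) and Itgb1 (0.63), with Foxp3 at 0 by construction. There 25.6% of kept genes were at least 1 lower, and Gzmb-positive cells made up 15.4% in KO and 6.12% in WT.

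In Foxp3-positive cells the opposite sign was found in KO for Uqcrc1 (-1.67), Tcf7 (0.44) and Arid5a (0.52). In WT it was found for Ltb (-0.79), Ctsd (-0.78), Foxp3 (-0.54), Hspa8 (-0.29), Capg (-0.16), Cd4 (-0.041), S1pr1 (0.11) and B4galnt1 (0.26). WT list medians there were 0.37 for naive and memory genes, -0.0895 for interferon-stimulated genes, 0.059 for effector cytokines, 0.58 for housekeeping and 0.97 for regulatory T cell genes. Genes at least 1 lower made up 10.3% in KO and 8.69% in WT, and Gzmb-positive cells made up 69.2% in KO and 63.3% in WT.

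Among paired WT cells Ctsd was at -1.25 and Ltb at -0.090. WT list medians were -0.14 for cytotoxic granule, -0.20 for interferon-stimulated, 0.034 for housekeeping, 0.74 for glycolysis and 0.90 for effector cytokine genes. In WT 16.8% of kept genes were at least 1 higher and 14.2% lower, and in KO 7.30% were lower.

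The median of the 4 kept effector cytokines was 2.51 in KO and 2.50 in WT with a pseudocount of 0.1, and 1.21 in KO and 1.12 in WT with 10. With no minimum share of cells, list members beyond these 4 also entered. The effector cytokine list median over that larger set was 0.13 in KO and 0.24 in WT, and the WT cholesterol synthesis median was 1.03. Over the genes kept under each setting, the WT effector cytokine median was 1.2 after thinning and 1.26 without cells holding 3 or more myeloid markers. It was 1.48 without cells holding Cd8a or Cd8b1, and 1.52 without cells lacking B2m or all Cd3 chains. The WT housekeeping median was 0.88 with a minimum of 2000 genes, 0.82 after thinning and 0.59 without cells lacking B2m or all Cd3 chains.

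Genes at least 1 higher, as a share of those kept, made up 29.4% in KO with a pseudocount of 0.1, 7.19% in KO and 16.5% in WT with 10, and 9.23% in KO and 17.4% in WT with no minimum share of cells. Genes at least 1 lower made up 8.80% in KO and 4.27% in WT with 0.1, 0.982% in KO and 0.461% in WT with 10, and 2.17% in KO and 1.05% in WT with no minimum share. They made up 7.43% in KO and 4.09% in WT with a minimum of 2000 genes, 7.01% in KO and 3.77% in WT without cells holding Cd8a or Cd8b1, 5.86% in KO and 4.58% in WT after thinning, and 5.71% in KO and 4.33% in WT without cells with Mki67 or Top2a. In WT they made up 3.97% without cells holding myeloid markers and 3.60% without cells lacking B2m or all Cd3 chains.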

Other observations

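Counted cell by cell, Gzmb-positive Foxp3-positive cells held a median of 15 of 22 regulatory T cell genes other than Foxp3 in KO (5 to 20) and 15 in WT (7 to 19). Gzmb-negative Foxp3-positive cells held a median of 11.5 in KO (4 to 19) and 13 in WT (8 to 17). Gzmb-negative Foxp3-negative cells held a median of 4 in each genotype, with up to 13 in KO and 16 in WT. Foxp3-negative Gzmb-positive cells lay between in KO, with a median of 7, and had 4 in WT. These counts depend on how many genes were found per cell and were not adjusted for it. Among Foxp3-positive cells the median of genes found was 2957 in Gzmb-positive and 2533 in Gzmb-negative KO cells, and 3193 and 2504 in WT.

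Folr4, a regulatory T cell surface gene, differed by 4.85 in KO and 1.41 in WT, and by 1.08 and -4.42 within Foxp3-positive cells. Among CD4 libraries under 1000 genes, 1 of 16 in KO and 0 of 15 in WT held Gzmb, and 1 of 16 in KO and 1 of 15 in WT held Foxp3.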
